A study of Schizosaccharomyces pombe with 30 samples.

Results

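The genes described are the ribosome biogenesis factors of fission yeast, Schizosaccharomyces pombe, whose symbols begin with utp, nop, rrp, noc, rix, rpf, brx or tsr and end in digits. The rule was applied to the symbols of the RefSeq annotation, and all 69 genes that meet it were on the array, out of 5081 genes in all. Of these, 67 were matched by systematic identifier and 2, utp5 and utp13, by an older identifier. The members comprised 30 genes of the small subunit processome, 21 of large subunit assembly, 8 of the exosome and 5 of late small subunit maturation. The remaining 5 were nop10 of the H/ACA particle, rrp12, which acts on both subunits, noc12, which was given no class, and rrp1 and rrp2. The annotation calls rrp1 and rrp2 an ATP-dependent DNA helicase and a DNA translocase, so these 2 meet the rule by their symbols and go against the name of the group.

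The study hybridised RNA of mutant strains with wild-type RNA to 30 splicing arrays of 2 colours, with 3 arrays in each of 10 groups. The alleles were deletions of pht1, the gene of the histone variant H2A.Z, deletions of swr1, the remodeller that deposits it, and DAmP alleles of usp107, a U1 snRNP component, and of prp16, a splicing ATPase. A DAmP allele disturbs the 3′ end of an mRNA so as to lower its abundance. Cells at 30 °C carried pht1∆, swr1∆, usp107DAmP or pht1∆ usp107DAmP. Cells moved to 16 °C for 9 hours carried pht1∆, prp16DAmP or pht1∆ prp16DAmP, and cells moved to 37 °C for 2 hours carried swr1∆, prp16DAmP or swr1∆ prp16DAmP. The wild-type RNA on each array came from cells kept at the same temperature, mutant RNA carried Cy5 and wild-type RNA Cy3 throughout, and all cells grew in YES5 medium.

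Ribosomes are built in the nucleolus, where RNA polymerase I makes a long precursor RNA that must be cut, modified, folded and loaded with proteins. The small subunit processome, with its Utp proteins and box C/D particles, assembles on the nascent precursor, while Noc, Nop, Rpf, Brx and Rix factors shape the large subunit and the exosome trims RNA ends. In yeasts the genes of these factors are known for being transcribed together with growth, and many of them in fission yeast carry short introns. The roles named below are those known for the budding yeast proteins of the same name, unless another source is given.

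Each gene had 1 exon feature, and 32 of the 69 genes had introns on the array, 20 with 1, 10 with 2 and 2 with 3. That gave 46 intron features and 45 junction features, since intron 1 of rrp41 had no junction feature. The exon, intron and junction ratios below are the log2 of mutant over wild type for these features, and the splicing index is the intron ratio minus the exon ratio of the same gene. Intron retention makes this index positive, but so does an exon ratio that falls where the intron ratio does not follow, and introns of 1 gene share an exon feature. The base of the deposited logarithm is not stated and was read as 2. Changes were called at an adjusted p of 0.05 in limma, fitted over all genes or introns with 1 spread estimated from all 30 arrays. Errors after ± are limma standard errors with n = 3 arrays a group. The labels do not say that replicates are separate cultures, so the p-values measure the spread between arrays, whose number limits the precision. Since the ratio to wild type was tested against 0, dye bias is part of each comparison, and ratios on centred arrays do not tell a change per cell.

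The deposited ratios had array medians within 0.0254 of 0. Of the targeted genes, pht1 had an exon ratio of -0.65 ± 0.10 in the pht1∆ arrays of 30 °C and -0.74 ± 0.10 in those of 16 °C. It was 0.02 ± 0.10 in pht1∆ usp107DAmP and -0.03 ± 0.10 in pht1∆ prp16DAmP, so the libraries labelled as these double mutants did not show the deletion and are named by label only. The swr1, usp107 and prp16 features were not lower, past the test, in the groups labelled with their alleles. The prp16 feature was lower in pht1∆ usp107DAmP, which does not carry its allele by label (-0.51 ± 0.20, limma adjusted p = 0.0395). At 16 °C it was -0.15 ± 0.20 in prp16DAmP and 0.28 ± 0.20 in pht1∆ prp16DAmP. At 37 °C it was -0.19 ± 0.20 in prp16DAmP and -0.01 ± 0.20 in swr1∆ prp16DAmP. For swr1 the exon ratio was -0.11 ± 0.11 in swr1∆ at 30 °C, -0.19 ± 0.11 in swr1∆ at 37 °C and -0.11 ± 0.11 in swr1∆ prp16DAmP. The swr1∆ and DAmP groups are thus also named by label only. Intron values that occur repeatedly on an array made up 32.8% of all intron values on pht1∆ 30 °C replicate 1, 25 of the 46 members' introns among them, and 19.3% on swr1∆ 30 °C replicate 1, with 6 members' introns.

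The introns on which the splicing results turn are shown here so that their splice sites can be read. Sequences are from RefSeq assembly ASM294v3, 5′ to 3′ on the gene's strand. Capitals mark the first 6 bases, the last 3 bases and, where present, the last match to CTNAC in the last 60 bases of the intron's own strand. CTNAC was the pattern searched here for a branch sequence, and other forms were not searched. An intron without a match may thus still hold a branch sequence, and a match need not be one. The sources used here name neither the array's build nor its probe sequences, so an intron's identity rests on its order in the gene, and all 9 lie between coding exons.
nop52 intron 1 (chrII:1824605-1824648, plus strand): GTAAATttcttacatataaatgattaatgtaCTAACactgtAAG
nop52 intron 2 (chrII:1824757-1824812, plus strand): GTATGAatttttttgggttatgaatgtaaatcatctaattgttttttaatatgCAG
nop52 intron 3 (chrII:1825102-1825283, plus strand): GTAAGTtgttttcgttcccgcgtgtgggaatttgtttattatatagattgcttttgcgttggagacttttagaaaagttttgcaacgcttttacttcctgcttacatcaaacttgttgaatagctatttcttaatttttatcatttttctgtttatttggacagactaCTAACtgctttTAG
rpf2 intron 1 (chrI:3899627-3899673, minus strand): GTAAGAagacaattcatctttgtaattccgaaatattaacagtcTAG
nop16 intron 1 (chrII:4380632-4380753, plus strand): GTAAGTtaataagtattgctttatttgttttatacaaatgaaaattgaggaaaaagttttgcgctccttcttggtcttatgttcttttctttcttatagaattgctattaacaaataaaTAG
utp15 intron 1 (chrII:480370-480578, minus strand): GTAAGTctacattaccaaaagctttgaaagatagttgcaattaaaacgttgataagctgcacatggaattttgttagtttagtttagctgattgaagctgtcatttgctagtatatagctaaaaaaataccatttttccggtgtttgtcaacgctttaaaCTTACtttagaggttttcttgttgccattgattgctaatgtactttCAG
utp22 intron 1 (chrII:3190985-3191035, minus strand): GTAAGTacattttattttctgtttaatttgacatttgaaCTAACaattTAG
nop58 intron 1 (chrI:876963-877003, plus strand): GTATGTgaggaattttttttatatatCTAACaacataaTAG
utp14 intron 1 (chrI:1533839-1533884, minus strand): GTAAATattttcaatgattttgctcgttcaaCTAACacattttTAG
The first 6 bases GTAAGT are the commonest among 5064 annotated coding introns, of which 27.5% carry them, against 6.64% with GTAAGA, 4.9% with GTATGA and 1.42% with GTAAAT. Of the 44 members' introns that could be placed, 36.4% began with GTAAGT, and 61.4% held CTNAC in the window, against 55.4% of all introns. Their median length was 60 bases, from 37 to 261, against 56 over all. A match is a description of the letters only, and introns of rrp36 and utp24 were not placed, because the array and the annotation differ in their number.

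In pht1∆ at 30 °C every member called on its exon feature was lower. The exon ratio fell in 19 of 69 members and rose in 0, where 16.9% of all 5069 exon features fell and 8.82% rose (25.7% in either direction). The median over the members was -0.16, against -0.03 over all exon features, and 55 of the 69 means were below 0. On the 3 arrays the members' median was -0.14, -0.12 and -0.18, against -0.05, -0.05 and -0.01 for all exon features, so the members lay below on each array. Of the 19, 13 were genes without introns and 6 had introns.

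**Figure D1:**
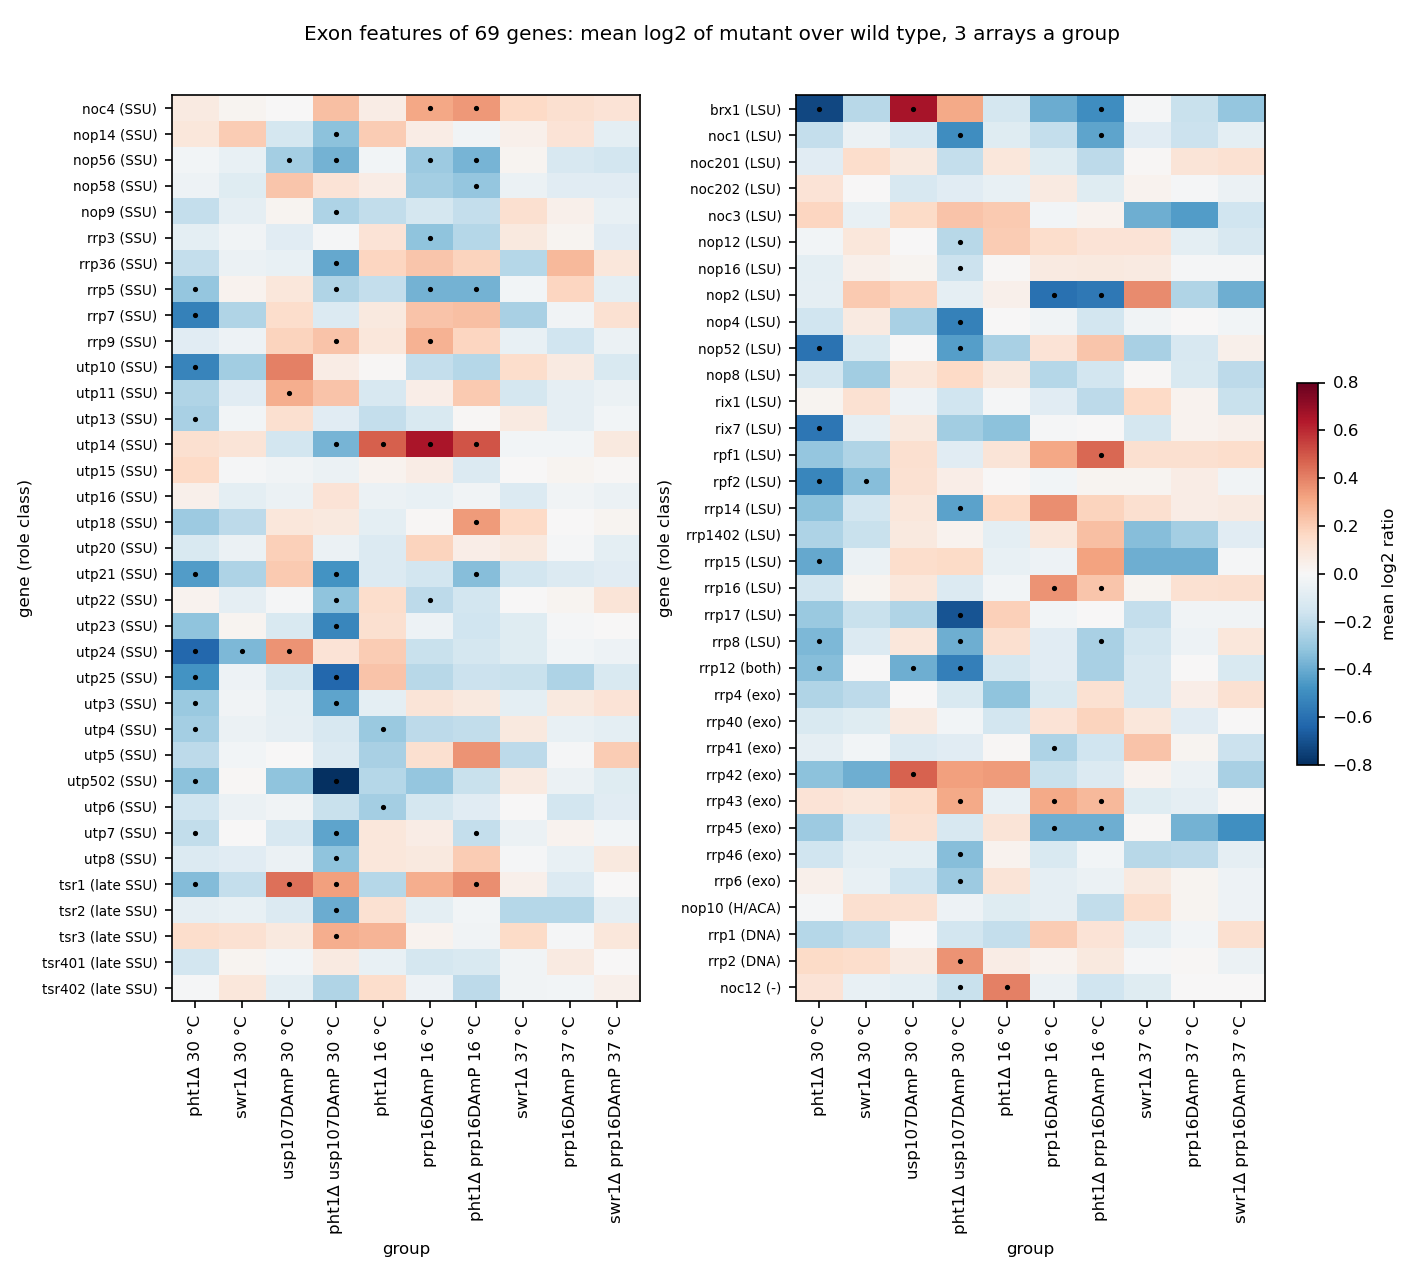
Mean exon ratio (colour, log2 of mutant over wild type) of the 69 genes in the 10 groups of 3 arrays, with the role class of each gene in brackets (SSU and LSU, small and large subunit; exo, exosome; DNA, DNA translocase; both, rrp12; -, no class) and a dot where limma's adjusted p was below 0.05. The column of pht1∆ at 30 °C has 19 dots, all on lower ratios, and the columns at 37 °C have 0.

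Among the small subunit processome genes, 11 of 30 fell. For utp24, the endonuclease that cuts the precursor of the small subunit RNA, the arrays gave -0.64, -0.63 and -0.62, and its mean of -0.63 ± 0.10 was a 1.55-fold lower level (limma, adjusted p = 5.0e-05). The gene therefore lay equally low on all 3 arrays. Also lower were rrp7 with -0.68, -0.48 and -0.45 (-0.54 ± 0.12) and utp25 with -0.46, -0.42 and -0.57 (-0.48 ± 0.11), both processome components. The processome class ranged from -0.63 to 0.16, with a median of -0.20.

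Of the 21 large subunit genes 6 fell, and 0 of the 8 exosome genes did, where 16.9% of all exon features fell. The classes were not tested against each other. The lowest of all members was brx1, needed for early large subunit particles, with -0.70, -0.89 and -0.61 and a mean of -0.73 ± 0.15, 1.66-fold lower (limma, adjusted p = 7.4e-04). The gene nop52, named after a human nucleolar protein and a relative of budding yeast Rrp1, gave -0.52, -0.50 and -0.74 and fell by 0.59 (± 0.12). For rix7, an AAA ATPase that strips factors off large subunit precursors, the arrays gave -0.91, -0.36 and -0.46 (-0.58 ± 0.14), and replicate 1 lay below the others. Without replicate 1 this call was lost, while brx1, utp24, nop52, rrp7 and utp25 passed the test whichever array was left out and also with the group's own arrays alone.

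The exosome genes ranged from -0.33 to 0.11 and the 5 late small subunit genes from -0.35 to 0.14, where tsr1 alone passed (-0.40, -0.34 and -0.32; mean -0.35 ± 0.12). The tsr1 call was lost under 5 of 6 alternative fits. The count of 19 became 9 when replicate 1 was left out and 12 when replicate 2 was. Scaling the arrays to equal spread gave 8, and there were 5 with the spread taken from the 3 arrays of the group alone, where 4.99% of all exon features were called.

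The introns of these genes did not fall with their exons in pht1∆ at 30 °C. The index rose for 11 of 46 introns and fell for 0, where 14% of all 4821 introns rose and 3.61% fell. These 11 lay in 6 genes, and 10 were in genes whose exon ratio had fallen. Of the 46 introns 16 were in large subunit genes, and 9 of these rose in index. The 9 belonged to nop52, rix7, rpf2 and nop16 only, and introns of 1 gene share an exon feature. Over the 11, the median intron ratio was 0.07 and the median exon ratio -0.58, so the index came mainly from the exon feature.

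Intron 2 of nop52 had the highest index, 0.76 ± 0.14 (limma, adjusted p = 3.5e-04). Its intron ratio was 0.36, 0.09 and 0.09, and its junction ratio was -0.51, -0.47 and -0.76. The spliced junction therefore lay below wild type on every array, by about as much as the exon, and the intron lay above. Introns 1 and 3 of nop52 had an index of 0.65 ± 0.12 and 0.60 ± 0.14, with junction ratios of -0.34 ± 0.10 and -0.51 ± 0.10 that had also fallen.

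Of the other large subunit introns, intron 3 of rix7 had an index of 0.64 ± 0.15 and a junction ratio of -0.97, -0.76 and -0.69. Intron 1 of rpf2, whose protein brings the 5S RNA particle to the large subunit, had an index of 0.62 ± 0.11, with intron ratios of 0.19, -0.17 and 0.28 that crossed 0. A different pattern was seen in nop16, a large subunit factor whose exon ratio stayed near 0 (-0.16, 0.01 and -0.08). There the intron ratio was 0.36, 0.16 and 0.38 (0.30 ± 0.07, limma adjusted p = 0.00728) and the junction ratio -0.70, -0.29 and -0.73 (-0.57 ± 0.18, limma adjusted p = 0.0218), giving an index of 0.38 ± 0.11. In nop16 the intron rose and the junction fell, but its index call was lost under 4 of 7 alternative fits.

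Among all 45 junction features, 10 fell and 3 rose, where 11.4% of all 4651 junction features fell and 11.1% rose. The lowest were nop10 (-0.83 ± 0.22), a protein of the H/ACA particle that guides pseudouridylation, and introns 2 and 3 of rix7 (-0.80 ± 0.13 and -0.80 ± 0.15). The 3 that rose belonged to rrp16 (0.44 ± 0.11), noc3 (0.37 ± 0.09) and intron 2 of utp16 (0.34 ± 0.07). On replicate 1, 25 of the members' intron values are repeated values, and the index count with that array left out was 6. It was 4 with the group's own arrays alone (introns 1 to 3 of nop52 and intron 1 of rpf2), where 5.93% of all introns were called. Scaling the arrays to equal spread also gave 6.

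**Figure D2:**
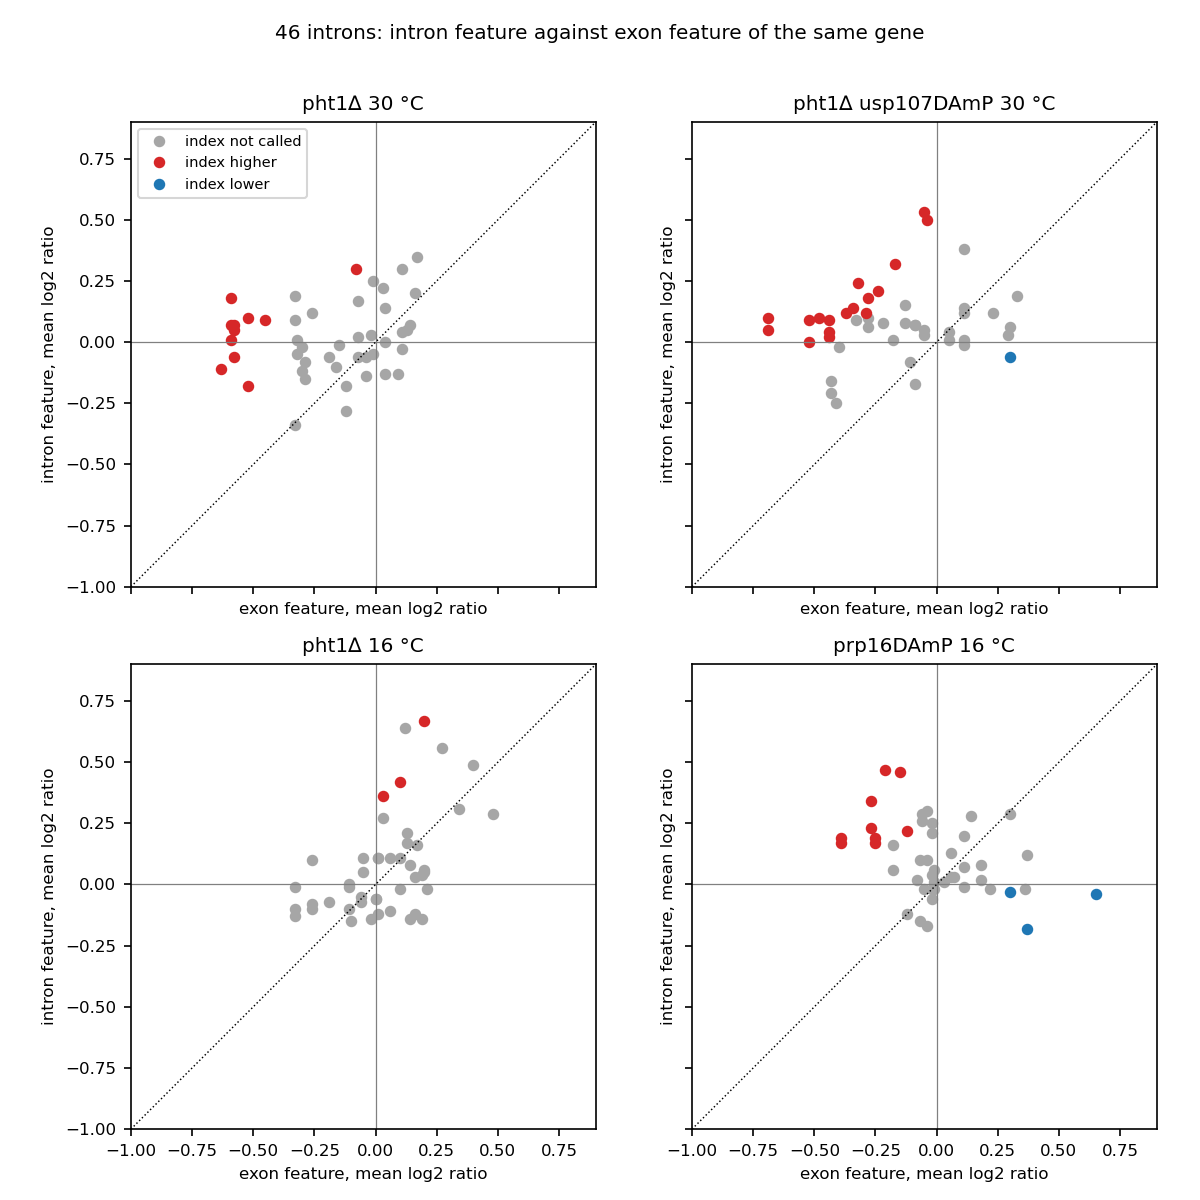
Mean intron ratio against mean exon ratio (both log2 of mutant over wild type) for the 46 introns in 4 groups of 3 arrays, coloured by the call on the splicing index; the dotted line marks equal ratios. In pht1∆ and pht1∆ usp107DAmP at 30 °C most called introns sit left of 0 on the exon axis near an intron ratio of 0, and in pht1∆ at 16 °C the 3 called introns sit above 0 on the intron axis.

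The arrays labelled pht1∆ usp107DAmP showed the most calls. Exon ratios fell in 27 of 69 members and rose in 5, where 24.4% of all exon features fell and 18% rose (42.4% in either direction). The members' median was -0.13, against -0.03 over all. By role, 14 of 30 processome genes, 8 of 21 large subunit genes and 2 of 8 exosome genes fell.

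Lowest was utp502, with -0.50, -1.44 and -0.47 and a mean of -0.80 ± 0.12, 1.75-fold lower (limma, adjusted p = 2.5e-05). Replicate 2 lay far below the others there. The same array was the lowest for rrp17, a large subunit factor with exonuclease activity (-0.70, -1.06 and -0.30; mean -0.69 ± 0.12), for utp25 (-0.52, -0.89 and -0.49; mean -0.63 ± 0.11) and for rrp12, an export factor of both subunits (-0.40, -1.10 and -0.15; mean -0.55 ± 0.12). More even were noc1, an early large subunit factor (-0.57, -0.49 and -0.44; mean -0.50 ± 0.08), and utp7 (-0.46, -0.42 and -0.39; mean -0.42 ± 0.07).

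The 5 that rose were rrp2, tsr1, rrp43, tsr3 and rrp9. For rrp2 the arrays gave 0.47, 0.60 and 0.01 (mean 0.36 ± 0.09) and for tsr1, a GTPase-like factor of late small subunit particles, 0.56, 0.62 and -0.20 (mean 0.33 ± 0.12). Replicate 3 thus lay near or below 0 for both. The exosome subunit rrp43 gave 0.51, 0.29 and 0.10 (mean 0.30 ± 0.08), and tsr3, which modifies the small subunit RNA, gave 0.19, 0.31 and 0.38 (mean 0.29 ± 0.11).

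Together these 32 calls became 20, 18 and 36 when replicate 1, 2 or 3 was left out. Scaling the arrays to equal spread left 14. With the spread from the group's own arrays there were 0, and 0.572% of all exon features were called. The calls in this group therefore rest on the spread shared with the other 27 arrays.

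The index rose for 17 of the 46 introns and fell for 1, where 25.1% of all introns rose and 5.48% fell, with a median of 0.27 against 0.14 over all introns. The 17 introns lay in 13 genes, and 13 of them were in genes whose exon ratio had fallen. Their median intron ratio was 0.12 and their median exon ratio -0.37. Highest were both introns of rrp17, intron 2 with 0.78 ± 0.14 and intron 1 with 0.74 ± 0.13, and intron 2 of utp23, of the processome, with 0.61 ± 0.14.

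For 2 of these introns the intron feature itself rose. Intron 1 of utp15, a processome subunit, had intron ratios of 0.87, 0.70 and 0.01 (0.53 ± 0.12) beside exon ratios of 0.13, -0.04 and -0.23. Intron 1 of nop16 had intron ratios of 0.43, 0.23 and 0.31 (0.32 ± 0.07) beside junction ratios of -0.77, -1.97 and -0.23 (-0.99 ± 0.18, limma adjusted p = 1.6e-04). The intron of nop16 was above wild type and its junction below on every array of this group, as it was in pht1∆.

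The only index that fell was intron 1 of rrp43, at -0.36 ± 0.11, where the exon ratio had risen. Its junction ratio was -1.03, -1.07 and -0.23 (-0.77 ± 0.11), so with the junction in place of the exon as the reference its sign turned, to 0.71. Junction features fell for 24 of 45 and rose for 0, where 29.4% of all junction features fell and 9.22% rose. Their median was -0.35. After nop16 the lowest were intron 2 of rix7 (-0.87 ± 0.13), the intron of tsr2 (-0.82 ± 0.12), intron 2 of utp20 (-0.81 ± 0.12), intron 2 of rrp17 (-0.78 ± 0.12) and the intron of utp21 (-0.78 ± 0.12).

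On the separate arrays the members' junction median was -0.41 and -0.43 on 2 arrays and -0.04 on the other, which was replicate 3. The 24 junction calls became 15, 12 and 31 when replicate 1, 2 or 3 was left out, and 0 with the group's own arrays alone. The 18 index calls became 11 when replicate 1 or 2 was left out, 7 after scaling to equal spread and 0 with the group's own arrays, where 2.82% of all introns were called.

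**Figure D3:**
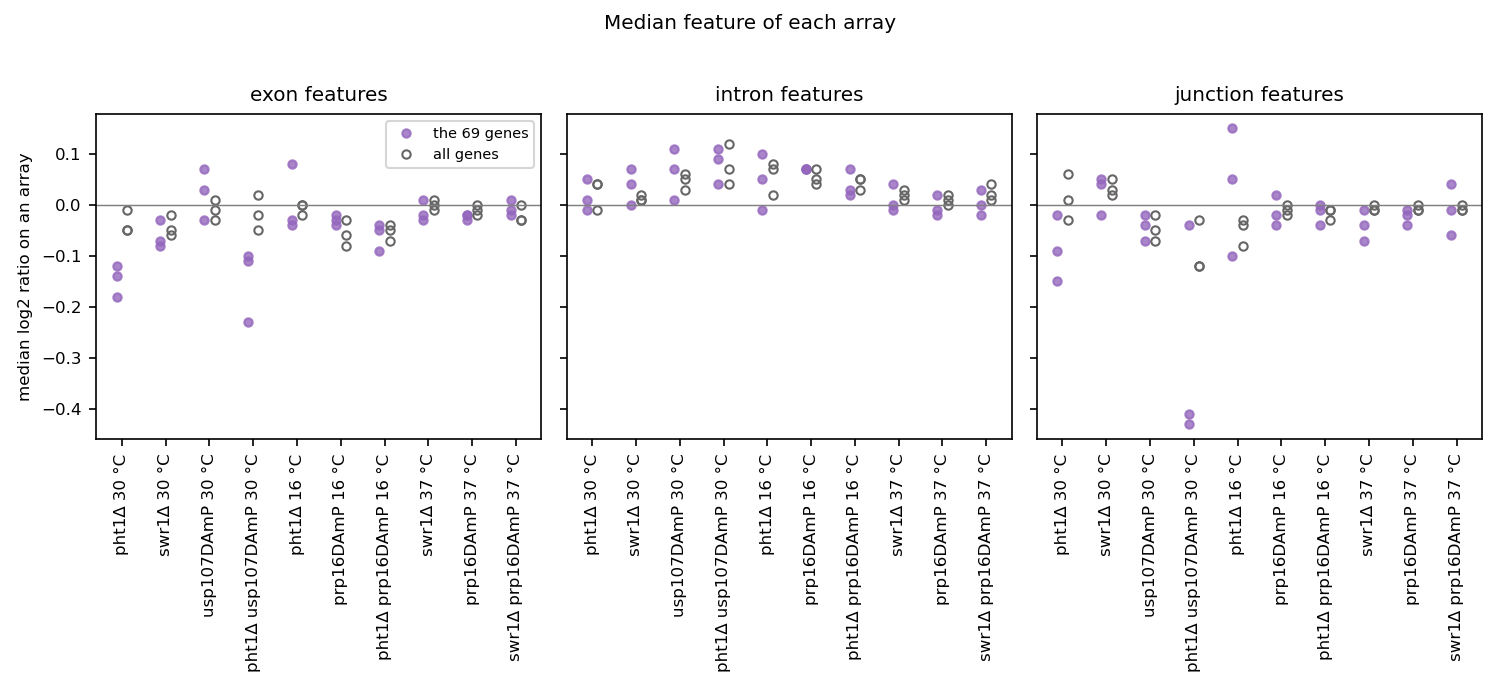
Median ratio (log2 of mutant over wild type) on each of the 30 arrays over the members' features (filled) and over all genes' features (open), for exon, intron and junction features. The members' exon medians lie below those of all genes on the 3 arrays of pht1∆ at 30 °C and of pht1∆ usp107DAmP, and the junction medians of -0.41 and -0.43 are the lowest points.

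With usp107DAmP alone, few members were called. Exon ratios rose in 5 of 69 and fell in 2, where 8.62% of all exon features rose and 11.9% fell, and the members' median was 0.00. For brx1 the arrays gave 0.99, 0.94 and 0.04 (mean 0.66 ± 0.15), so 2 arrays lay high and replicate 3 at 0. The other values that rose were rrp42 (0.32, 0.88 and 0.22; mean 0.47 ± 0.14), tsr1 (0.59, 0.71 and 0.02; mean 0.44 ± 0.12), utp24 (0.31, 0.48 and 0.30; mean 0.36 ± 0.10) and utp11.

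The 2 that fell were rrp12 (-0.33, -0.69 and -0.16; mean -0.39 ± 0.12) and nop56, a core protein of box C/D particles (-0.34, -0.02 and -0.45; mean -0.27 ± 0.08). These 7 calls became 0, 1 and 10 when replicate 1, 2 or 3 was left out, and 0 with the group's own arrays alone, where 1.28% of all exon features were called.

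No member's index passed limma's test with usp107DAmP, where 11.6% of all introns rose and 2.68% fell. At an unadjusted p of 0.05, 9 of 46 passed (19.6%, against 28.4% of all introns), and 2 passed after adjustment with the junction as the reference, where 12.7% of all introns did. The values ran from intron 1 of utp13 (-0.26, -0.18 and -0.74; mean -0.39 ± 0.16) to intron 2 of utp16 (0.26, 0.47 and 0.38; mean 0.37 ± 0.13). Junction ratios fell for 2 of 45, utp21 (-0.43 ± 0.12) and intron 2 of utp20 (-0.37 ± 0.12), and 8.43% of all junction features fell. Both calls were lost when replicate 1 or 2 was left out, and with the group's own arrays.

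Setting pht1∆ usp107DAmP against usp107DAmP, 1 exon ratio differed, that of utp21, a processome subunit. It was -0.17, -0.44 and -0.82 in the double mutant and averaged 0.21 in usp107DAmP, a difference of -0.69 ± 0.17 (limma, adjusted p = 0.0494), where 0.651% of all exon features were lower. The members' median difference was -0.19, and 56 of 69 differences were below 0. With the replicate number as a block, 4 members were lower. Without replicate 3 of the double mutant 2 were higher and 13 lower, while 0 passed without replicate 2 of the double mutant or without replicate 1 of usp107DAmP. No index passed limma's adjusted test, where 0.207% of all introns were higher, and 12 of 46 had an unadjusted p under 0.05 (26.1%, against 9.85% of all introns), the largest being 0.69 ± 0.26 for nop10.

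In swr1∆ at 30 °C 2 members fell and 0 rose, where 3.65% of all exon features fell and 1.91% rose (5.56% in either direction). They were utp24 (-0.44, -0.68 and 0.04; mean -0.36 ± 0.10, limma adjusted p = 0.0312) and rpf2 (-0.27, -0.68 and -0.08; mean -0.34 ± 0.09, limma adjusted p = 0.028). Replicate 3 lay near 0 for both. The members' median was -0.05, as for all exon features. The index rose for the same 2 genes, 0.44 ± 0.11 at intron 1 of rpf2 and 0.44 ± 0.13 at the intron of utp24, where 4.56% of all introns rose.

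Of the intron features, that of nop16 rose, by 0.23 ± 0.07, where 3.62% of all intron features rose. Both exon calls and both index calls were lost when replicate 1 or 2 was left out and with the group's own arrays, and leaving out replicate 3 gave 6 of each. Against pht1∆ at 30 °C, no exon ratio differed past limma's adjusted test, where 1.58% of all exon features were higher and 0.789% lower (2.37% in either direction). At an unadjusted p of 0.05, 8 of 69 differed (11.6%, against 14.6% of all exon features). The median difference was 0.11, against -0.01 over all, and the widest was 0.51 ± 0.21 for brx1 (-0.22 in swr1∆ and -0.73 in pht1∆). For the index 0 passed after adjustment, 0.249% of all introns being lower, and 4 of 46 at an unadjusted p of 0.05 (8.7%, against 10.4% of all introns), from -0.54 ± 0.22 at intron 3 of rix7 to 0.36 ± 0.16 at rrp6.

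**Figure D4:**
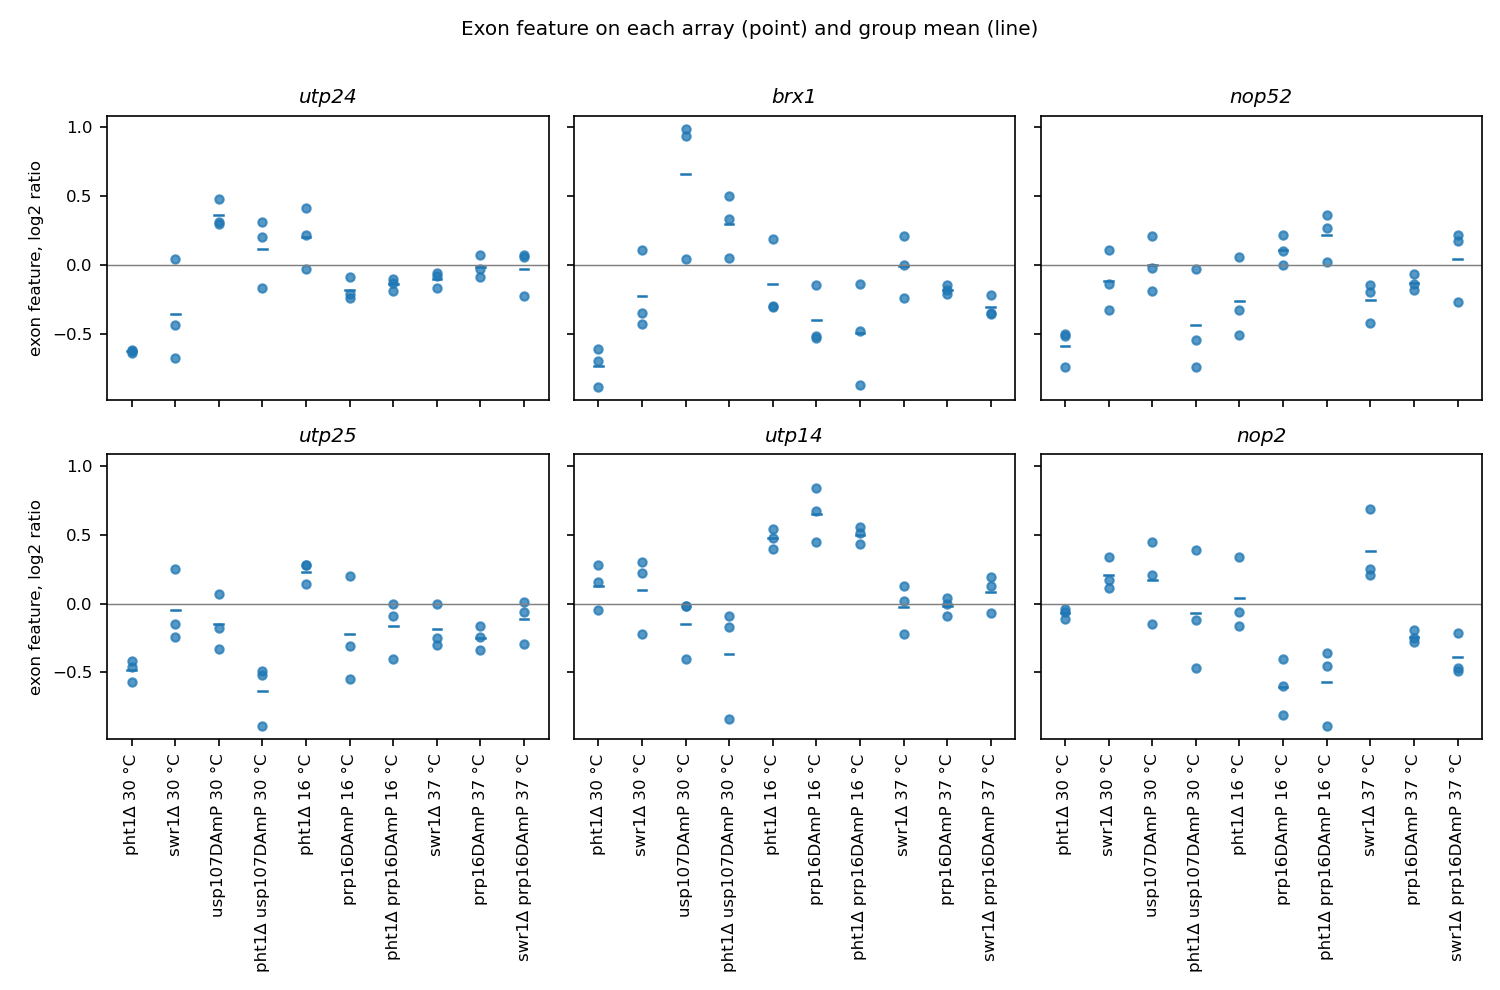
Exon ratio (log2 of mutant over wild type) on each array (points) with the group mean (line) for 6 members in the 10 groups of 3 arrays. The 3 arrays of utp24 in pht1∆ at 30 °C coincide at -0.63, brx1 reaches from -0.89 in pht1∆ to 0.99 in usp107DAmP, and utp14 lies above 0 on all 9 arrays at 16 °C.

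In pht1∆ at 16 °C few members were called. Exon ratios rose in 2 of 69 and fell in 2, where 8.74% of all exon features rose and 11.5% fell (20.3% in either direction), and the members' median was 0.01. The 2 that rose were utp14, which drives the helicase step that dismantles the processome (0.54, 0.48 and 0.40; mean 0.48 ± 0.12), and noc12 (0.49, 0.52 and 0.19; mean 0.40 ± 0.07). All arrays lay above 0 for both. Those that fell were the processome subunits utp4 (-0.43, 0.06 and -0.54; mean -0.30 ± 0.10) and utp6 (-0.30, -0.03 and -0.47; mean -0.27 ± 0.08), each with replicate 2 near 0.

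Without replicate 1 the only call was that of noc12, higher, and utp14 missed the threshold. Without replicate 2 there were 3 higher and 7 lower, and leaving out replicate 3 gave 2 higher and 0 lower. With the group's own arrays 3 were higher (noc12, rrp42 and utp14) and 1 was lower (utp5).

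The index rose for 3 of 46 introns in pht1∆ at 16 °C and fell for 0, where 21.9% of all introns rose and 3.88% fell. All 3 had higher intron ratios and no lower exon ratio. Intron 1 of nop14, of the processome, gave intron ratios of 1.04, 0.13 and 0.84 and an index of 0.47 ± 0.16. The intron of utp15 gave 0.24, 0.42 and 0.43 with an index of 0.34 ± 0.12, and that of rrp6, the nuclear exonuclease of the exosome, gave 0.71, 0.00 and 0.55 with an index of 0.32 ± 0.11. Replicate 2 was low for nop14 and rrp6.

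Intron features themselves rose for 9 of 46 and fell for 0, where 23.9% of all intron features rose and 2.71% fell. Besides these 3 the higher ones included tsr2 (0.64 ± 0.18), tsr3 (0.56 ± 0.12), noc12 (0.49 ± 0.12) and rrp42 (0.31 ± 0.08). For noc12 and utp14 the exon ratio had risen too. The count of 9 became 6 without replicate 1 and 3 without replicate 3, and 3 with the group's own arrays. The index count of 3 became 0 without replicate 1 and 1, a lower one, without replicate 3, and it was 9, with 8 higher, when the junction was the reference.

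Between 16 and 30 °C in pht1∆, 6 exon ratios were higher at 16 °C and 0 lower, where 5.13% of all exon features were higher and 2.8% lower (7.93% in either direction). The members' median difference was 0.15, against 0.02 over all. The widest was utp24, at -0.03, 0.41 and 0.22 in the cold against -0.64, -0.63 and -0.62 at 30 °C, a difference of 0.83 ± 0.14 (limma, adjusted p = 8.5e-04). Next were utp25 (0.71 ± 0.16), rrp42 (0.67 ± 0.20) and rrp7 (0.62 ± 0.16), and the arrays of the 2 temperatures did not overlap for any of these 4 genes. Each ratio is to wild type at the same temperature, so this compares mutant effects and not levels.

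The index was lower in the cold for 3 introns, where 3.26% of all introns were lower and 6.68% higher. These were intron 1 of rpf2 (-0.06 against 0.62, a difference of -0.68 ± 0.16), the intron of utp24 (-0.66 ± 0.18) and intron 2 of rrp17 (-0.61 ± 0.20). The exon count of 6 became 3 without replicate 1 of 30 °C or replicate 2 of 16 °C, 1 (utp24) after scaling to equal spread and 2 (utp24 and utp25) with the arrays of these groups alone, where 2.21% of all exon features were called. For the index it was 1 without replicate 2 of 30 °C and 0 with the groups' own arrays.

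With prp16DAmP at 16 °C, members were called in both directions. Exon ratios rose in 5 of 69 and fell in 7, where 5.43% of all exon features rose and 11.9% fell, and the median was -0.04 against -0.06 over all. Among the processome genes, utp14 rose the most, with 0.67, 0.45 and 0.84 (mean 0.65 ± 0.12, 1.57-fold, limma adjusted p = 6.3e-04), and noc4 gave 0.43, 0.32 and 0.19 (mean 0.31 ± 0.10). Lower were rrp5, which binds the precursor on the way to both subunits (-0.53, -0.54 and -0.08; mean -0.38 ± 0.09), and rrp3, an RNA helicase (-0.45, -0.28 and -0.24; mean -0.32 ± 0.10).

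The lowest member was nop2, the methyltransferase of the large subunit RNA, with -0.81, -0.60 and -0.40 (mean -0.60 ± 0.13, 1.52-fold lower, limma adjusted p = 0.0034). In the large subunit class rrp16 rose (0.49, 0.22 and 0.37; mean 0.36 ± 0.07). In the exosome class rrp45 fell (-0.58, -0.60 and 0.02; mean -0.39 ± 0.12), while rrp43 rose evenly (0.28, 0.29 and 0.33; mean 0.30 ± 0.08). Rrp45 and Rrp43 are both subunits of the exosome ring.

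Leaving out replicate 1, 2 or 3 turned these 12 calls into 1, 4 and 9. The group's own arrays gave 12, where 13.5% of all exon features were called, with utp14, nop2, rrp43, noc4, rrp16 and rrp3 among them and rrp45 and rrp5 not.

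The index rose for 9 of 46 introns with prp16DAmP at 16 °C and fell for 3, where 14.1% of all introns rose and 3.48% fell. The array held 9 exosome introns, and the index of 5 of them rose, in rrp41, rrp45 and rrp46. With the junction as the reference, the indices of rrp46 and of rrp45 intron 2 reversed. Those of rrp41 introns 1 and 2 were lost under 4 of 6 and 3 of 7 alternative fits. Of the 9 introns with a higher index, 5 lay in genes whose exon ratio had fallen. The lower exon calls concerned, of rrp41, rrp45 and utp22, were lost under 5, 5 and 6 of 6 alternative fits. The highest was intron 1 of utp22, of a processome subcomplex, with intron ratios of 0.50, 0.46 and 0.45, exon ratios of -0.16, -0.26 and -0.22 and an index of 0.69 ± 0.12 (limma, adjusted p = 4.5e-04). Its intron was higher and its exon lower on every array, and its junction ratio of 0.03, -0.05 and 0.13 stayed near 0.

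Next were the intron of utp21, with intron ratios of 0.47, 0.50 and 0.41 and an index of 0.61 ± 0.15, and intron 1 of nop58, a core protein of box C/D particles. The nop58 intron ratios were 0.35, 0.26 and 0.42, and its index was 0.61 ± 0.13. Its junction ratio was 0.18, 0.54 and -0.69, so that replicate 3 went against the other arrays. Both introns of rrp45 rose in index, by 0.57 ± 0.15 and 0.56 ± 0.15 for introns 2 and 1, but the junction of intron 2 was also higher (0.44 ± 0.08), and against it the index of intron 2 was -0.25.

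The lowest index was that of the intron of utp14, -0.69 ± 0.13 (limma, adjusted p = 0.001). There the exon ratio was 0.65, while the intron ratio was 0.02, 0.03 and -0.16 and the junction ratio 0.08, -0.10 and -0.01. The exon feature alone was high, and neither the intron nor the junction feature went with it. Intron 2 of rrp14 (-0.55 ± 0.17) and intron 1 of rrp43 (-0.33 ± 0.11) were also lower, both in genes with exon means above 0.

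Intron features rose for 6 of 46 and fell for 0, where 5.58% of all intron features rose and 1.63% fell. They were utp22 (0.47 ± 0.10), utp21 (0.46 ± 0.08), nop58 intron 1 (0.34 ± 0.08), utp23 intron 2 (0.30 ± 0.08), rrp43 intron 2 (0.29 ± 0.09) and rrp17 intron 2 (0.25 ± 0.07). That count became 1 without replicate 1, 2 without replicate 3, 12 with arrays centred on exon features and 0 with the group's own arrays. For the index the 12 became 3, 8 and 7 when replicate 1, 2 or 3 was left out. They were 5 with the group's own arrays, where 8.53% of all introns were called, and 6 with the junction as the reference.

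**Figure D5:**
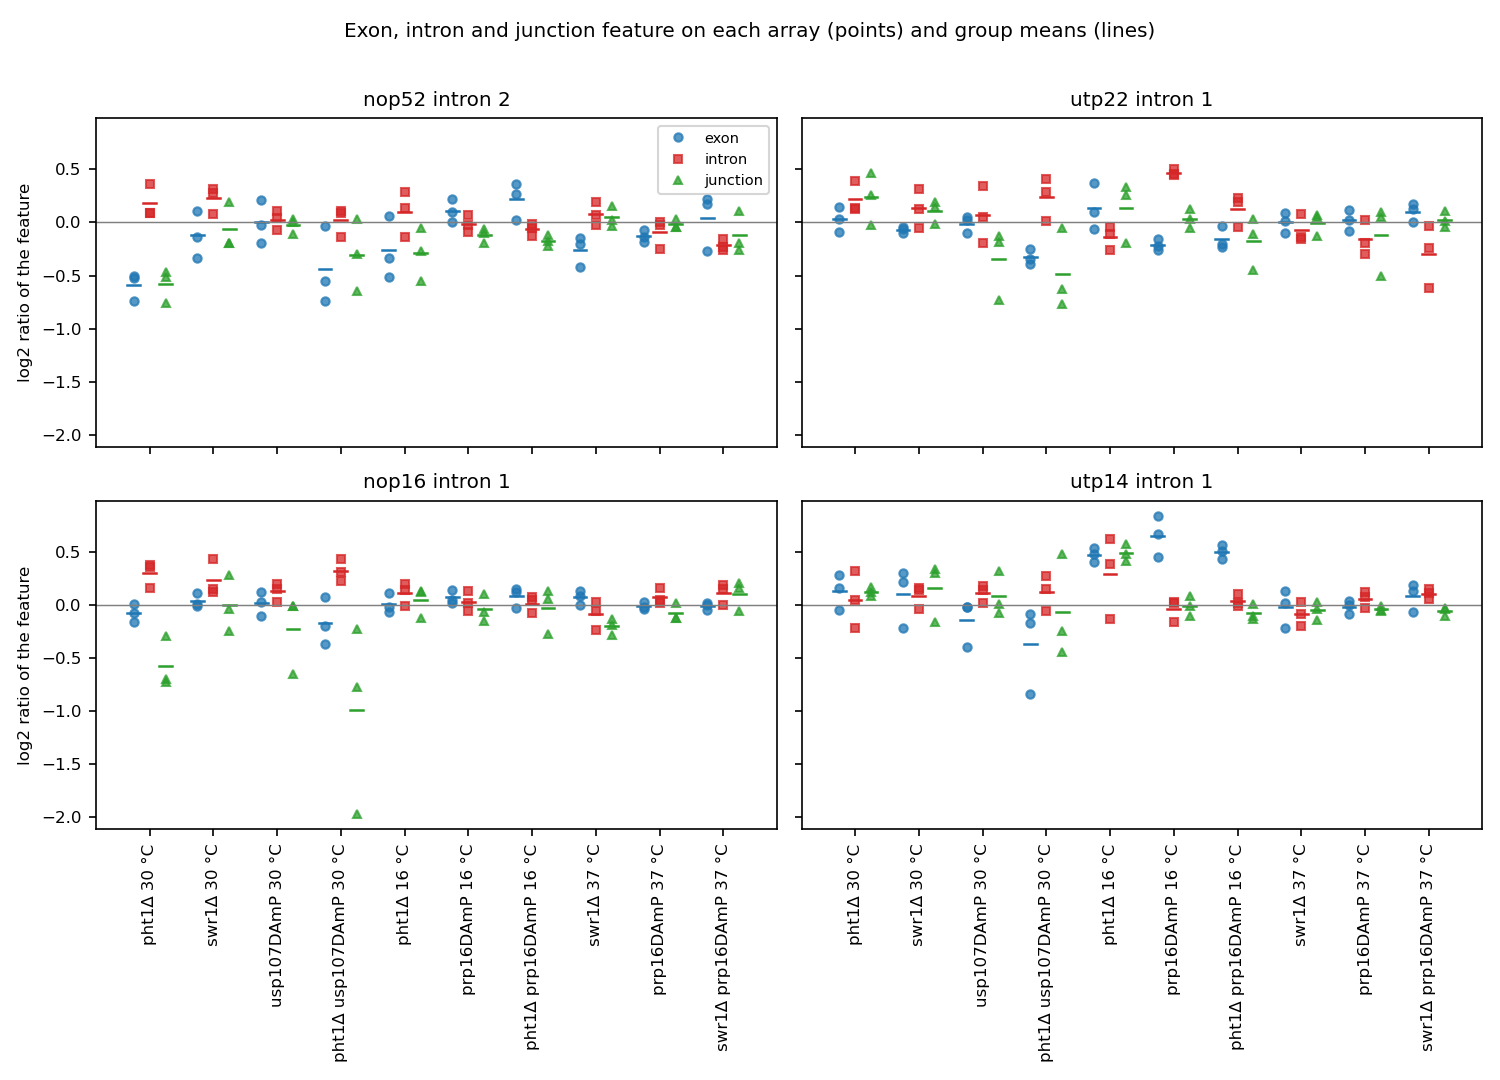
Exon, intron and junction ratio (log2 of mutant over wild type) on each array (points) with group means (lines) for 4 introns in the 10 groups of 3 arrays. In pht1∆ at 30 °C the exon and junction of nop52 intron 2 lie below the intron; in prp16DAmP at 16 °C the intron of utp22 lies above its exon on all 3 arrays and the exon of utp14 lies above its intron and junction; the junction of nop16 reaches -1.97.

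The arrays labelled pht1∆ prp16DAmP at 16 °C had calls in both directions. Exon ratios rose in 7 of 69 and fell in 10, where 6.98% of all exon features rose and 16.4% fell (23.4% in either direction). Highest were utp14 (0.51, 0.56 and 0.43; mean 0.50 ± 0.12), rpf1, a large subunit factor (0.61, 0.36 and 0.41; mean 0.46 ± 0.12), tsr1 (0.41, 0.38 and 0.30; mean 0.37 ± 0.12) and noc4 (0.42, 0.17 and 0.47; mean 0.35 ± 0.10). All arrays lay above 0 for these 4.

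Lowest were nop2 (-0.89, -0.45 and -0.36; mean -0.57 ± 0.13), brx1 (-0.87, -0.48 and -0.14; mean -0.50 ± 0.15), noc1 (-0.20, -0.58 and -0.47; mean -0.42 ± 0.08) and rrp45 (-0.47, -0.22 and -0.47; mean -0.39 ± 0.12). For nop2 and brx1 replicate 1 was the lowest array. The 17 calls became 2 without replicate 1 and 10 without replicate 2, and 18 with the group's own arrays alone, where 29.3% of all exon features were called.

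The index rose for 4 of 46 introns and fell for 1, where 14.5% of all introns rose and 3.09% fell. In nop10 the intron ratios were 0.98, 0.43 and 0.18 and the junction ratios -0.73, -0.32 and -1.44, giving an index of 0.73 ± 0.18. The nop10 intron was high and its junction low on each array, although the intron feature did not pass its own test. Both introns of rrp45 rose in index (0.62 ± 0.15 for intron 2 and 0.47 ± 0.15 for intron 1), with intron 2 at -0.30 against its junction. The intron of utp14 was lower, at -0.47 ± 0.13, and at 0.11 against its junction.

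These 5 became 0 without replicate 1 and 2 without replicate 3. Between pht1∆ prp16DAmP and prp16DAmP at 16 °C no exon ratio and no index passed limma's adjusted test, where 0.0789% of exon features were higher, as many lower, and 0.0415% of introns lower. At an unadjusted p of 0.05, 1 exon ratio (1.45%, against 5.94% of all exon features) and 3 indices (6.52%, against 7.2% of all introns) differed. Exon differences ran from -0.25 ± 0.10 for utp7 to 0.36 ± 0.19 for rrp15, and index differences from -0.41 ± 0.17 for utp22 to 0.81 ± 0.26 for nop10.

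At 37 °C no member passed the test of the exon ratio in any of the 3 groups. Over all exon features, 1.05% were called in swr1∆ (0.888% higher and 0.158% lower). For prp16DAmP it was 0.118% (0.0395% higher and 0.0789% lower), and for swr1∆ prp16DAmP 0.355% (0.0197% higher and 0.335% lower). At an unadjusted p of 0.05, limma gave 9, 9 and 4 members, or 13%, 13% and 5.8%, against 11.2%, 5.48% and 12.9% of all exon features. In swr1∆ the means ran from rrp15, a large subunit factor (-0.35, -0.31 and -0.50; mean -0.39 ± 0.13), to nop2 (0.25, 0.21 and 0.69; mean 0.38 ± 0.13).

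In prp16DAmP they ran from noc3, a large subunit factor (-0.47, -0.60 and -0.28; mean -0.45 ± 0.15), to rrp36 of the processome (0.28, 0.14 and 0.35; mean 0.26 ± 0.11). In swr1∆ prp16DAmP they ran from rrp45 (-0.45, -0.44 and -0.57; mean -0.49 ± 0.12, limma adjusted p = 0.0639) to utp5 (0.15, 0.24 and 0.21; mean 0.20 ± 0.15). All 3 arrays of each of these genes lay on 1 side of 0.

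On the 9 arrays at 37 °C the median absolute deviation over all features was 0.0969 to 0.196, against 0.14 to 0.348 on the other 21. With each group's own arrays the calls were 2 for swr1∆ (noc3 and rrp15, both lower), 13 for prp16DAmP (2 higher and 11 lower) and 0 for the double mutant, where 1.99%, 14.3% and 0% of all exon features were called. The 11 in prp16DAmP included noc3 (-0.45 ± 0.06), rrp15 (-0.39 ± 0.09), rrp45 (-0.38 ± 0.06), utp25 (-0.25 ± 0.05) and nop2 (-0.24 ± 0.04), with the errors of that fit, and the 2 higher ones were rrp36 and rrp5. Scaling to equal spread gave 10, 14 and 2.

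The index passed the test for 0 of 46 introns at 37 °C, against 0%, 0.0622% and 0.207% of all introns in the 3 groups in that order, and limma's unadjusted p was under 0.05 for 5, 5 and 7 of the members' introns, or 10.9%, 10.9% and 15.2%, against 9.52%, 5.19% and 14.5% of all introns. The highest were noc3 in swr1∆ (0.36, 0.45 and 0.47; mean 0.43 ± 0.17) and in prp16DAmP (0.43, 0.63 and 0.60; mean 0.55 ± 0.17), and intron 2 of rrp45 in the double mutant (0.52, 0.52 and 0.76; mean 0.60 ± 0.15, limma adjusted p = 0.0698). The lowest were intron 2 of rrp41 (-0.34 ± 0.11), the intron of rrp36 (-0.40 ± 0.18) and that of utp22 (-0.40 ± 0.12).

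With the groups' own arrays 5 introns were called in swr1∆ and 6 in prp16DAmP, where 6.74% and 5.87% of all introns were, and 0 in the double mutant. Between swr1∆ prp16DAmP and prp16DAmP no exon ratio or index differed after adjustment in limma, where 0.0197% of all exon features and 0% of introns did, and 0 exon ratios and 1 index had an unadjusted p under 0.05, against 2.05% of all exon features and 2.45% of all introns. The exon differences lay between -0.26 ± 0.13 (rrp5) and 0.37 ± 0.19 (rrp15), and the index differences between -0.35 ± 0.24 (noc3) and 0.43 ± 0.23 (nop14).

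Over the 10 groups, 53 of the 69 exon features passed the test in at least 1 group and 16 in none. That was 76.8% of the members, and 76.7% of all exon features passed in at least 1 group. The 16 were noc201, noc202, noc3, nop10, nop8, rix1, rrp1, rrp1402, rrp4, rrp40, tsr401, tsr402, utp15, utp16, utp20 and utp5. Most often called were rrp5 and nop56, lower in 4 groups each and higher in 0, and tsr1 and utp14, called in 4 groups each. Same-numbered arrays deviated together between swr1∆ and pht1∆ at 30 °C and between usp107DAmP and pht1∆ usp107DAmP. They also did so between prp16DAmP and pht1∆ prp16DAmP at 16 °C. Calls in such pairs of groups are therefore not independent.

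For rrp5 the 4 groups were pht1∆ at 30 °C (-0.31), pht1∆ usp107DAmP (-0.24), prp16DAmP at 16 °C (-0.38) and pht1∆ prp16DAmP (-0.38). Its calls in pht1∆ at 30 °C and in pht1∆ usp107DAmP were each lost under 5 of 6 alternative fits. For nop56 they were usp107DAmP (-0.27), pht1∆ usp107DAmP (-0.38), prp16DAmP at 16 °C (-0.29) and pht1∆ prp16DAmP (-0.37), and its mean was -0.02 in pht1∆ at either temperature. The direction of tsr1 differed between groups, with -0.35 in pht1∆ at 30 °C, 0.44 in usp107DAmP, 0.33 in pht1∆ usp107DAmP and 0.37 in pht1∆ prp16DAmP. These tsr1 calls were lost under 5, 3, 4 and 3 of 6 alternative fits in that order, so its only lower call was the least stable. Utp14 was higher in the 3 groups at 16 °C and lower, at -0.37 ± 0.12 (-0.17, -0.84 and -0.09), in pht1∆ usp107DAmP. Called in both directions were 5 members (7.25%), against 11.3% of all exon features.

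The exosome gene rrp45 had a mean between -0.38 and -0.49 in each of the 4 groups labelled with prp16DAmP, past the test at 16 °C and not at 37 °C. In the other groups it lay between -0.29 and 0.12. Its gene holds 2 introns, and both had an index called higher in the 2 groups at 16 °C. With the junction as the reference, the index of intron 2 reversed in both of these groups. The lower exon call in prp16DAmP at 16 °C was lost under 5 of 6 alternative fits, that in pht1∆ prp16DAmP under 2.

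Other genes of ribosome production were set beside the members from a list of 88 further biogenesis genes and 139 ribosomal protein genes on the array. In pht1∆ at 30 °C 33 of the 88 fell and 1 rose, with a median of -0.20, and 57 of the 139 ribosomal protein genes fell and 0 rose, with a median of -0.24. The lower calls were 37.5% and 41% of these lists, against 27.5% of the members and 16.9% of all exon features. In pht1∆ usp107DAmP 36 of the 88 fell and 4 rose, and 34 of the 139 fell and 12 rose. There the lower calls were 40.9% and 24.5% of the lists, against 39.1% of the members and 24.4% of all exon features.

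In pht1∆ at 16 °C the medians were 0.03 for the 88 and 0.09 for the 139, against 0.01 for the members. With prp16DAmP at 16 °C the ribosomal protein genes fell in 80 of 139, with a median of -0.37, and rose in 1, while 9 of the 88 biogenesis genes and 7 of the 69 members fell, with medians of -0.09 and -0.04. The lower calls were 57.6% of the ribosomal protein genes, 10.2% of the 88 and 10.1% of the members, against 11.9% of all exon features, whose median was -0.06. In pht1∆ prp16DAmP 74 of the 139 fell, with a median of -0.35, against 17 of the 88 and 10 of the 69, or 53.2%, 19.3% and 14.5%, where 16.4% of all exon features fell. Between the lists no test was made.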

How the data were processed

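The 30 two-channel arrays were deposited by the authors as 1 log ratio per feature and array, read as log2 of mutant (Cy5) over wild type (Cy3), per the labels' dyes; no source used here gives the array design, the normalisation or the base of the logarithm. The deposited log2 ratios had no missing values and were used unchanged. Features were joined to genes by systematic identifier. The members and lists were chosen with earlier results of these data known, and role classes were adjusted after the annotation was seen.

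Group means and differences were fitted by lmFit and eBayes of limma 3.58.1, run in R 4.3.3, across all exon, intron or junction features or all splicing indices, with all 10 groups in 1 fit and Benjamini-Hochberg adjustment over all features of a kind. The fit was tested on simulated data. Splicing indices were 4821, for introns whose gene had an exon feature.

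Named were the 4 called members with the highest and the 4 with the lowest exon mean in a comparison, the 3 introns with the highest and 3 with the lowest called index, the most often called members, and the extremes where none was called; further genes, and junction features not beside these, were chosen after their values were seen.

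Alternatives were scaling arrays to equal spread, centring on exon features, fitting only the arrays compared, the junction as the index reference, leaving out each array and, for differences, the replicate number as a block. Same-numbered arrays deviated together, every correlation above 0.1, between swr1∆ and pht1∆ at 30 °C (exon 0.785, 0.676 and 0.532), pht1∆ usp107DAmP and usp107DAmP (0.637, 0.603 and 0.745), and pht1∆ prp16DAmP and prp16DAmP at 16 °C (0.212, 0.394 and 0.179). They did not between the temperatures of pht1∆ (-0.225, -0.0836 and 0.18) or the 37 °C pair (-0.226, -0.133 and -0.325).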

Additional observations from a re-analysis of the deposited data

Results flagged for a closer look

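The 9 results below were picked out because the effect of pht1∆ against wild type differed between 16 and 30 °C by limma's test of the difference itself. Of 10 alternative fits, the exon call was lost under 0 for utp24, 1 for utp25 and 4 each for rpf2 and rrp7. It was lost under 5 for rrp8 and 7 for rrp42. Of 11 alternative fits, the index call was lost under 2 for rpf2 intron 1, 4 for utp24 and 8 for rrp17 intron 2. The exon difference of utp24 was 0.83 ± 0.14 and that of utp25 0.71 ± 0.16, with arrays of 0.28, 0.28 and 0.14 in the cold against -0.46, -0.42 and -0.57 for utp25. The exon differences of rrp42, an exosome ring subunit, and rrp7 were 0.67 ± 0.20 and 0.62 ± 0.16. For rpf2 the difference was 0.53 ± 0.13, from -0.39, -0.86 and -0.32 at 30 °C to -0.06, -0.03 and 0.10 at 16 °C, and for rrp8, a methyltransferase of the large subunit RNA, it was 0.49 ± 0.14. The splicing index differed by -0.68 ± 0.16 for intron 1 of rpf2, by -0.66 ± 0.18 for the intron of utp24 and by -0.61 ± 0.20 for intron 2 of rrp17. For rpf2 and utp24 the exon feature that moved is part of the index. The rrp17 exon ratios were -0.42, -0.46 and -0.01 at 30 °C and 0.25, 0.14 and 0.17 at 16 °C, a difference not called. Its intron 2 ratios were -0.14, 0.04 and 0.06 at 30 °C and -0.27, -0.04 and -0.12 at 16 °C. The exon feature thus makes up much of that index difference too.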

How the results depend on the processing

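Of 154 single called values, 13 were called under all their alternatives and 7 reversed. All 7 were indices with the junction as the reference: rpf2 intron 2 (-0.44) in pht1∆ at 30 °C, rrp43 intron 1 (0.71) in pht1∆ usp107DAmP, rrp46 (-0.07), rrp43 intron 1 (0.24) and rrp45 intron 2 (-0.25) in prp16DAmP at 16 °C, and utp14 (0.11) and rrp45 intron 2 (-0.30) in pht1∆ prp16DAmP. The cause was not tested.

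Exon counts that moved by over 1.5 times with arrays scaled to equal spread were 8 in pht1∆ at 30 °C, 14 in pht1∆ usp107DAmP, 2 in pht1∆ at 16 °C, 10, 14 and 2 at 37 °C (swr1∆, prp16DAmP and both), 1 in swr1∆ at 30 °C, 1 for pht1∆ at 16 against 30 °C and 0 for pht1∆ usp107DAmP against usp107DAmP. With only the arrays compared they were 5 in pht1∆ at 30 °C, 0 in usp107DAmP, 0 in pht1∆ usp107DAmP, 2 in swr1∆ and 13 in prp16DAmP at 37 °C, 0 in swr1∆ at 30 °C, and 2 and 0 for those differences. Centring on exon features gave 0 in swr1∆ at 30 °C. The replicate block gave 4 for pht1∆ usp107DAmP against usp107DAmP and changed no other call.

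Index counts after scaling were 6 in pht1∆ at 30 °C, 7 in pht1∆ usp107DAmP, 1 in pht1∆ at 16 °C, 7, 5 and 3 at 37 °C, 1 in swr1∆ at 30 °C and 1 for the temperatures. With only the arrays compared they were 4, 0 and 1 in the first 3 of these groups, 5 in prp16DAmP at 16 °C, 5 in swr1∆ and 6 in prp16DAmP at 37 °C, 0 in swr1∆ at 30 °C and 0 for the temperatures. With the junction as the reference they were 2 in usp107DAmP, 9 in pht1∆ and 6 in prp16DAmP at 16 °C, 1 in swr1∆ at 30 °C and 7 for the temperatures. Junction and intron counts were added after seeing the data. With only the arrays compared, junction counts were 8 in pht1∆ at 30 °C, 0 in usp107DAmP and 0 in pht1∆ usp107DAmP, which scaling took to 15, and centring gave 1 in usp107DAmP. Intron counts were 3 in pht1∆ at 16 °C and 0 in prp16DAmP at 16 °C with the arrays compared, and in the latter 3 after scaling and 12 after centring.

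Leaving out 1 array at a time, exon counts ran from 9 to 13 in pht1∆ at 30 °C, 0 to 10 in usp107DAmP, 18 to 36 in pht1∆ usp107DAmP, 0 to 6 in swr1∆ at 30 °C, 1 to 10 in pht1∆, 1 to 9 in prp16DAmP and 2 to 13 in pht1∆ prp16DAmP at 16 °C, 3 to 6 for the temperatures and 0 to 15 for pht1∆ usp107DAmP against usp107DAmP. Index counts ran from 6 to 10, 0 to 1, 11 to 17, 0 to 6, 0 to 4, 3 to 8, 0 to 4, 1 to 4 and 0 to 3 in the same order. Junction counts ran from 9 to 12, 0 to 3 and 12 to 31 in the first 3 of these groups, and intron counts from 3 to 7 in pht1∆ and 1 to 7 in prp16DAmP at 16 °C. Exon and index counts of the other comparisons were 0 whichever array was left out, and other junction and intron counts were not run this way. A group left with 2 arrays was assumed to vary like the others.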
